A study of Mus musculus with 8 samples.

Results

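The neighbourhood described here is a run of 7 protein-coding genes on mouse chromosome 7, in the order Rsf1, Clns1a, Aqp11, Pak1, Gdpd4, Myo7a and Capn5, out of 53465 genes listed in each count table. The genes span 598.4 kb, from 97579889 to 98178274 of build GRCm38 in the GENCODE M21 annotation. They were chosen on the strain difference itself, as a stretch with genes lower in NOD and the genes on its flanks. The strain differences of these 7 genes are therefore given below as a description, with no p-value, and where the text counts them among called genes it restates that choice.

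Double-positive (CD4+ CD8+) thymocytes came from NOD/ShiLtJ (NOD) mice, which become diabetic through autoimmunity without treatment, and from C57BL/6J mice, the strain of the reference genome. Live double-positive cells were sorted from dissociated thymus by their CD4 and CD8a staining, and their total RNA was sequenced. There were 4 libraries per strain, whose titles carry a B and a T number. Reads were added up over the T numbers, which gave 2 samples per strain. Both strains are unmanipulated, and the labels give neither age nor sex.

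Double-positive thymocytes complete their antigen receptor and are selected on stromal cells of the thymic cortex, contacts in which the actin skeleton is in use. The 7 genes belong to no common pathway. Pak1 encodes a kinase that is switched on by the small GTPases Rac and Cdc42 and acts on actin through LIM kinases. Aqp11 encodes an aquaporin of intracellular membranes whose loss gives mice cystic kidneys. Myo7a encodes an unconventional myosin of inner ear hair cells and of the retina, the gene mutated in shaker1 mice. Rsf1 encodes the histone-binding partner of the ISWI remodeller Smarca5. Clns1a encodes pICln, a chaperone that holds Sm proteins for their assembly into snRNPs. Gdpd4 belongs to the glycerophosphodiester phosphodiesterases, and Capn5 to the calpains, calcium-dependent cysteine proteases.

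Neighbouring members differ in how they face each other. Clns1a, on the plus strand, ends 3.21 kb from the end of Aqp11, on the minus strand, so these genes meet tail to tail. Aqp11 and Pak1 are divergent, with annotated start sites 50.3 kb apart. Pak1 and Gdpd4 follow each other on the plus strand with a gap of 7.57 kb. Gdpd4 meets Myo7a tail to tail at 1.4 kb. Myo7a and Capn5 follow each other on the minus strand, 2.03 kb apart, and Rsf1 and Clns1a on the plus strand, 3.85 kb apart. The start of Myo7a lies 381.2 kb from that of Aqp11.

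RefSeq promoters, the 250 bases before to 50 after a start site in build GRCm38.p6, were at hand for 5 of the 7 genes. Those of the 3 genes that stood lower in NOD and of the flanking gene Clns1a are printed because they let the starts of the run be compared with that of its neighbour. Each is written along the strand of its gene. Capitals mark matches, on either strand, to the letters TGACGTCA (the cAMP response element), CAGCTG (an E-box), GGGCGG (the GC box), CCGGAA (an ETS core), TGTGGT (a RUNX core), CTTTGA (a TCF core) or TATAAA. None of these letters overlapped another in the printed promoters. The sequences are the reference genome's, which is that of C57BL/6J.
Aqp11, chr7:97738198-97738497, minus strand: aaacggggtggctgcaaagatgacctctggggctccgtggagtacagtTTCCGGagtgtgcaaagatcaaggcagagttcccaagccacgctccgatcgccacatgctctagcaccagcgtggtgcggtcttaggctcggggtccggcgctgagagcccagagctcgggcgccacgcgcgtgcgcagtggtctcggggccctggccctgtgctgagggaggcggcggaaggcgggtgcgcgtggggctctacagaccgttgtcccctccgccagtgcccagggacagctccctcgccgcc
Pak1, chr7:97788291-97788590, plus strand: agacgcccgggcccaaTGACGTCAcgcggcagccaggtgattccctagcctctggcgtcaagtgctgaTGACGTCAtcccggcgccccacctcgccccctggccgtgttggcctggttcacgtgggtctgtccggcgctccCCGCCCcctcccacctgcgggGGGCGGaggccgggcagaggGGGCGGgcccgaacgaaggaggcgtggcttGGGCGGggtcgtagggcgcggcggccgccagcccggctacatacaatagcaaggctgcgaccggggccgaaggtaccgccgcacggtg
Myo7a, chr7:98119444-98119743, minus strand: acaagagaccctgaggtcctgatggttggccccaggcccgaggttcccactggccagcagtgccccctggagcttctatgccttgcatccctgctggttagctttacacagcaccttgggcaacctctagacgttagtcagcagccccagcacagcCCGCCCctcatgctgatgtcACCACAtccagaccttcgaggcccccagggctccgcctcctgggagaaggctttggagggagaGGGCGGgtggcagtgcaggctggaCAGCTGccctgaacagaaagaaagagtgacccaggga
Clns1a, chr7:97696407-97696706, plus strand: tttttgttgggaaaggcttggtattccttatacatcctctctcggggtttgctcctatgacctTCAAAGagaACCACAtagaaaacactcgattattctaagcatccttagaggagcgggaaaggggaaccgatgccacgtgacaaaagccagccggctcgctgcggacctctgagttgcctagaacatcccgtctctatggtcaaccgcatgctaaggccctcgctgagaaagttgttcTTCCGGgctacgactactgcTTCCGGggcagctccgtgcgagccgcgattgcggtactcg

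The promoters of the run had little in common by these letters. The Pak1 promoter held 2 copies of the cAMP response element, at -234 and -182 from the start site, and 4 GC boxes. The Aqp11 promoter held 1 ETS core, at -202, and none of the other letters. The Myo7a promoter held 2 GC boxes, 1 E-box and 1 RUNX core, and that of Clns1a 2 ETS cores, 1 RUNX core and 1 TCF core. Among all 32851 promoters of the table, 1.79% held the cAMP response element, 35.7% the GC box, 14.9% the ETS core, 16.3% the E-box, 16.8% the RUNX core, 16% the TCF core and 13.6% the TATA letters. The letters were chosen with the sequences in view, and a match is not a binding site. GC content was 68.0% for Aqp11, 73.0% for Pak1, 62.0% for Myo7a and 53.3% for Clns1a, against a median of 52.7% over all promoters. The number of CG pairs was 27, 35, 6 and 20 in the same order, against a median of 7. RefSeq lists a further start for Pak1, 54398 bases into the gene, and a further one for Myo7a, 10276 bases from the GENCODE start of that gene. The counts are per gene and do not tell these starts apart.

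Aqp11 (ENSMUSG00000042797, 97724006 to 97738289, minus strand) carried the largest strain difference of the 7 genes. Its level, in CPM (a gene's reads scaled to all reads in genes of the library), was 82.6 and 75.9 CPM in the libraries of NOD sample 1 and 66.8 and 47.4 CPM in those of NOD sample 2. In C57BL/6J it was 279 and 396 CPM in the libraries of sample 1 and 427 and 409 CPM in those of sample 2. Every NOD library lay below every C57BL/6J library, and the highest NOD value was well under the lowest C57BL/6J value. The summed samples averaged 68.6 ± 15.01 CPM in NOD and 375 ± 65.03 CPM in C57BL/6J (SD, n = 2 each, here and below). The log2 fold change (NOD over C57BL/6J) was -2.49 ± 0.21 (SE of the edgeR fit). The mean CPM of C57BL/6J was 5.46 times that of NOD before the TMM factors of the fit. These levels rest on 6971 reads in NOD and 18016 reads in C57BL/6J. The samples of 1 strain differed from each other by 1.37 times in NOD and by 1.28 times in C57BL/6J. In bulk RNA, fewer cells that carry a transcript and less of it per cell cannot be told apart.

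Pak1 (ENSMUSG00000030774, 97788541 to 97912381, plus strand), the kinase next to Aqp11, stood at 12.9, 11.7, 13.7 and 15.5 CPM in the NOD libraries. The C57BL/6J libraries held 30.7, 30.7, 30.8 and 36.2 CPM. The strains did not overlap, and the spread within each was narrow. The means were 13.4 ± 1.54 CPM in NOD and 31.7 ± 1.43 CPM in C57BL/6J, a log2 fold change of -1.28 ± 0.21. Between the samples of a strain Pak1 differed by 1.18 times in NOD and 1.07 times in C57BL/6J, the narrowest spread of the 3 lower genes.

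Gdpd4 (ENSMUSG00000035582, 97919955 to 98049663, plus strand), which lies between Pak1 and Myo7a, was close to silent and too low to be tested. It had 4 reads in NOD, all in 1 library of sample 2, and 5 reads in C57BL/6J, in 2 libraries. The ratio of NOD to C57BL/6J was 0.374, with an exact 95% interval of 0.0741 to 1.74 that covers counting error only. A strain difference was not detectable at this depth.

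Myo7a (ENSMUSG00000030761, 98051060 to 98119524, minus strand) was low in both strains. Its NOD libraries held 0.765, 1.35, 0.922 and 0.831 CPM. The C57BL/6J libraries held 2.48, 6.75, 3.12 and 3.40 CPM. The strains did not overlap, but the libraries of C57BL/6J sample 1 differed by 2.73 times from each other. The means were 0.970 ± 0.126 CPM in NOD and 3.75 ± 0.753 CPM in C57BL/6J, a log2 fold change of -2.0 ± 0.43. These rest on 99 reads in NOD and 180 reads in C57BL/6J, far fewer than for Aqp11.

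The genes on the flanks of the run overlapped between the strains. Rsf1 (ENSMUSG00000035623, 97579889 to 97692778, plus strand) held 301, 264, 268 and 256 CPM in the NOD libraries and 271, 277, 307 and 331 CPM in the C57BL/6J libraries. The log2 fold change of Rsf1 was -0.15 ± 0.16. Clns1a (ENSMUSG00000025439, 97696634 to 97720796, plus strand) held 86.2, 98.9, 75.3 and 94.6 CPM in the NOD libraries and 99.2, 92.9, 85.9 and 82.8 CPM in the C57BL/6J libraries. Its log2 fold change was -0.09 ± 0.17, so the gene whose end lies nearest to that of Aqp11 differed by less than its error.

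Capn5 (ENSMUSG00000035547, 98121559 to 98178274, minus strand) held 15.3 and 12.02 CPM in the libraries of NOD sample 1 and 23.1 and 22.5 CPM in those of NOD sample 2. The C57BL/6J libraries held 16.2, 12.5, 11.4 and 12.5 CPM. NOD sample 1 lay within the range of C57BL/6J and NOD sample 2 above it, so the samples of NOD, 1.67 times apart, differed more than the strains. The log2 fold change was 0.42 ± 0.30, and it was -0.00071 without NOD sample 2. Omp, the olfactory marker protein gene, lies inside Capn5 on the same strand without a shared exon, at 1.22 ± 0.285 CPM in NOD and 0.540 ± 0.229 CPM in C57BL/6J.

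**Figure D1:**
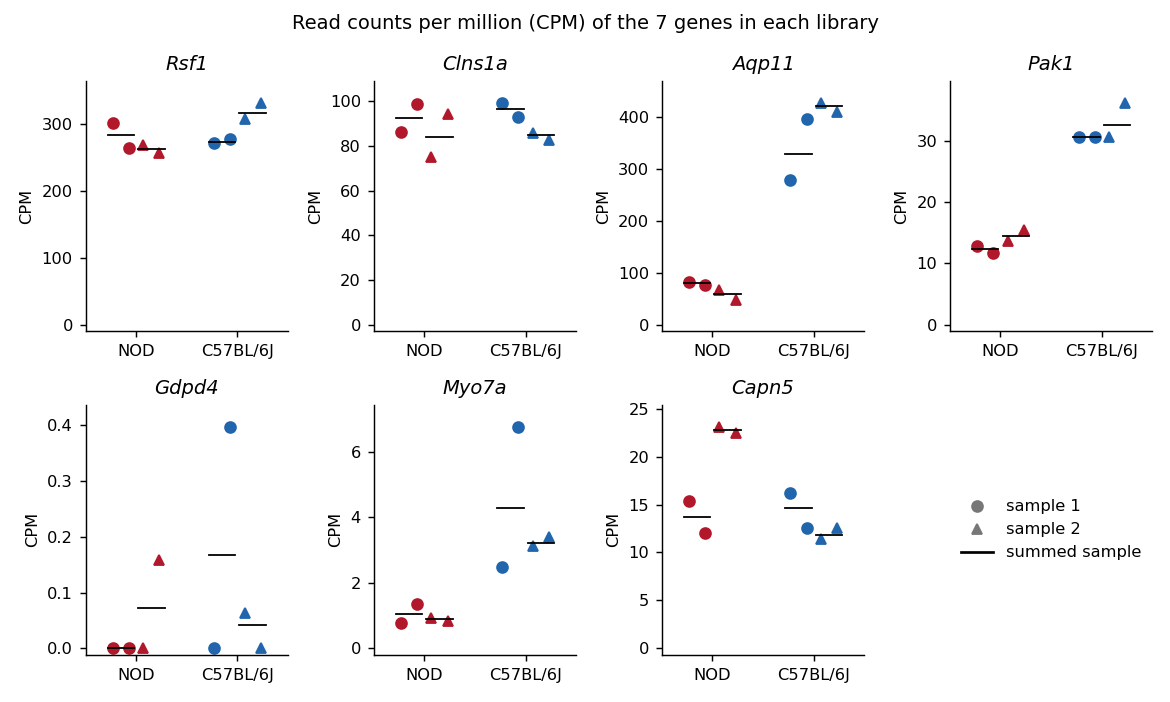
CPM of the 7 genes in each library (linear axes from 0), NOD in red and C57BL/6J in blue, circles for sample 1 and triangles for sample 2, with a black line at the value of each summed sample. The NOD libraries of Aqp11 (47.4 to 82.6 CPM), Pak1 and Myo7a lie below all C57BL/6J libraries, while Rsf1, Clns1a and Capn5 overlap and Gdpd4 is near 0.

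Of the 6 members that passed the low-count filter, 3 were past an adjusted p of 0.05 in the fit over all genes, all lower in NOD, as were 1.78% of the 17291 genes tested. None was called higher, as were 1.91% of genes tested. The NOD libraries of the same 3 lay below all C57BL/6J libraries, as in 7.17% of genes tested, and those of no member lay above, as in 9.43%. These counts restate the values on which the genes were picked. With either C57BL/6J sample left out Pak1 (-1.28 and -1.29) and Myo7a (-1.73 and -2.24) kept their sign but were no longer past that threshold. Among the 307 genes called lower in NOD, ordered from the largest fall, Aqp11 ranked 159, Myo7a 191 and Pak1 246. Aqp11, Pak1 and Myo7a follow each other directly among the tested genes of chromosome 7, since Gdpd4 was not tested, with Clns1a before them and Capn5 after them.

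Levels between genes were compared per length, as CPM per kb of annotated exon (RPKM). In NOD the order was Clns1a at 22.9 ± 1.57 RPKM, Rsf1 at 14.3 ± 0.739, Aqp11 at 7.29 ± 1.59, Pak1 at 3.40 ± 0.391, Capn5 at 3.33 ± 1.18 and Myo7a at 0.113 ± 0.0147 RPKM. Pak1 and Capn5 did not differ there beyond their spread. In C57BL/6J the order was Aqp11 at 39.8 ± 6.91 RPKM, Clns1a at 23.5 ± 2.16, Rsf1 at 15.5 ± 1.57, Pak1 at 8.03 ± 0.364, Capn5 at 2.41 ± 0.363 and Myo7a at 0.438 ± 0.0879 RPKM. No neighbours in that order came within their spread. Aqp11 thus came after Clns1a and Rsf1 in NOD and before both in C57BL/6J. Among all tested genes ranked by RPKM it was number 6102 in NOD and number 1141 in C57BL/6J, while Clns1a was number 2159 in NOD and number 2087 in C57BL/6J. Pak1 was number 9165 in NOD and number 5645 in C57BL/6J.

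**Figure D2:**
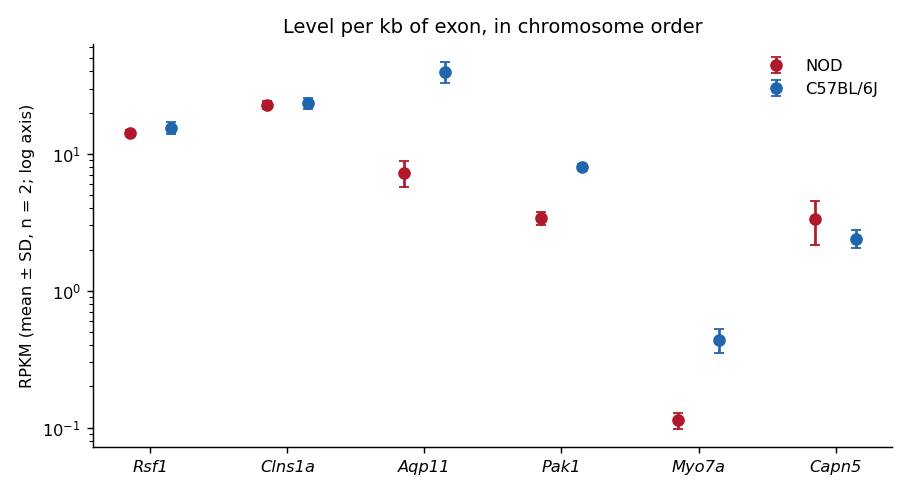
Mean RPKM of the 6 tested members in chromosome order on a log axis, NOD in red left of C57BL/6J in blue, with the SD of 2 summed samples as bars. Aqp11 is at 7.29 RPKM in NOD and 39.8 RPKM in C57BL/6J, while the points of Rsf1 and Clns1a lie side by side.

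The run was set against the 36 other genes of a window of chromosome 7 around it, whose tested genes start between -656.7 kb (Gab2) and 964.8 kb (Thap12) of the Aqp11 start. Of these 36 genes 17 could be tested, and 0 passed the test (edgeR quasi-likelihood, adjusted p under 0.05), against 3.68% of all genes tested in either direction. At an unadjusted p under 0.05 there were 2. For all genes the share at that unadjusted p was not counted, here and below. DESeq2 called 2 of the 17, against 937 of all 17291 genes tested. The median log2 fold change of the 17 was -0.0085, against 0.02 for all genes tested, with 9 below 0 and 8 above. The 2 genes were Rpl15-ps5 and Gm15506, the latter with all NOD libraries higher. Rpl15-ps5, a processed pseudogene of a ribosomal protein inside Rsf1 on the opposite strand, stood at 1.48 ± 0.515 CPM in NOD and 4.65 ± 1.15 CPM in C57BL/6J (log2 fold change -1.71 ± 0.44, adjusted p = 0.0782), with all NOD libraries lower. Reads of such a copy may come from its parent gene or its other copies, so its value is uncertain. Leaving out NOD sample 1 gave an adjusted p of 0.0201 (edgeR). Gm15506, a processed transcript that starts next to Thap12 on the opposite strand, stood at 5.86 ± 1.53 CPM in NOD and 1.93 ± 1.12 CPM in C57BL/6J (1.57 ± 0.46, adjusted p = 0.128; 0.0116 without NOD sample 2).

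The adjusted p of the other 15 genes lay between 0.392 and 0.992 (edgeR). Towards lower coordinates Aamdc, which starts close to Rsf1 on the opposite strand, had a log2 fold change of -0.04 ± 0.23, Ints4, a subunit of the Integrator complex, 0.03 ± 0.19, and Ndufc2, a subunit of respiratory complex I, 0.08 ± 0.22. Alg8, a glucosyltransferase of N-glycan assembly, stood at 2.63 ± 1.26 CPM in NOD and 5.03 ± 1.29 CPM in C57BL/6J (-0.97 ± 0.44, adjusted p = 0.392), with overlapping libraries. Usp35, a deubiquitinase, gave 0.67 ± 0.32, with all NOD libraries higher, as in 9.43% of genes tested. Kctd21 gave -0.57 ± 0.43, Gab2 -0.09 ± 0.49 and the pseudogene Gm16053 -0.78 ± 0.66. Towards higher coordinates Omp gave 1.13 ± 0.53, Acer3, an alkaline ceramidase, 0.42 ± 0.30, Lrrc32 0.44 ± 0.52, A630091E08Rik 0.45 ± 0.45, Emsy -0.0085 ± 0.18 and Thap12 -0.23 ± 0.17. Rsf1os2, antisense to Rsf1 and Clns1a, gave -0.19 ± 0.47. It shares 164 exonic bases with Rsf1 and 121 with Clns1a. The strand setting of the counting was not given in the sources used here, so how many of its reads come from those genes is not known.

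**Figure D3:**
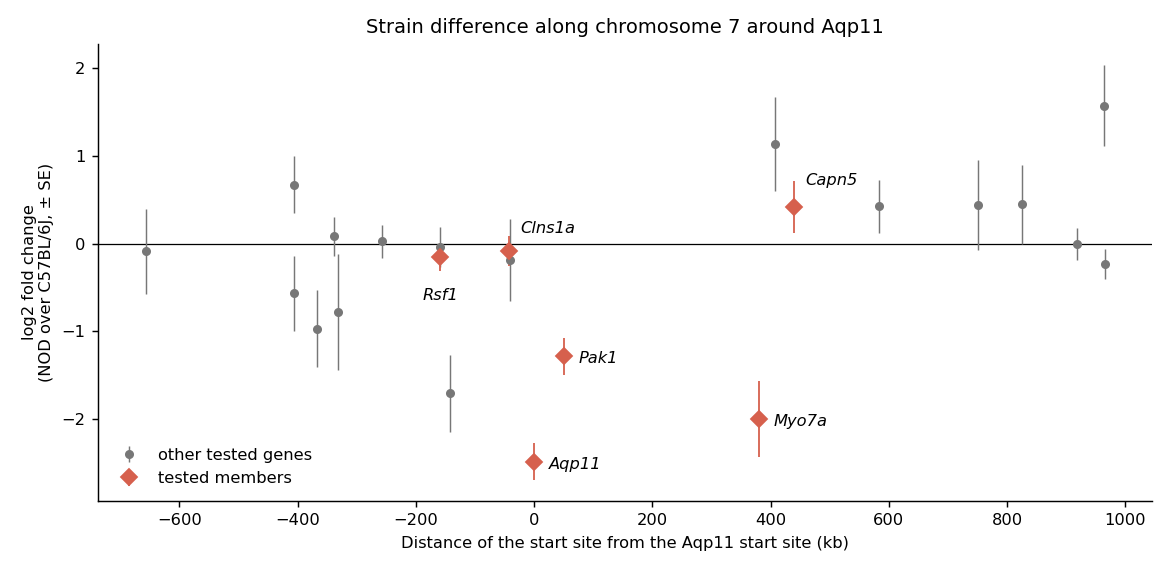
log2 fold change (NOD over C57BL/6J, with SE) of the 23 tested genes that start in the window, by distance of the start site from that of Aqp11 in kb, with tested members as diamonds. Aqp11 (-2.49), Pak1 (-1.28) and Myo7a (-2.0) lie below every other tested gene of the window except Rpl15-ps5 (-1.71).

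Each lower gene was then set beside its relatives and partners. Over 8 lists, 98 distinct genes other than the members were tested, of which 1 was higher and 2 were lower in NOD (edgeR). That is a share near the 3.68% called among all genes tested. Calls by DESeq2 in these lists and in the marker lists below stand against 937 of all 17291 genes tested. Aqp11 was the only aquaporin of 12 in the list with more than trace reads. The 11 others summed to 0.329 to 0.892 CPM in the NOD libraries and 0.352 to 0.701 CPM in the C57BL/6J libraries. Aqp2, Aqp7 and Aqp12 had no read in any library, and none of the 11 passed the low-count filter.

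Of 31 tested kinases, activators and substrates around Pak1, 0 were higher and 1 was lower in NOD by edgeR, with 3 at an unadjusted p under 0.05 and 2 called by DESeq2, 1 of them higher (median log2 fold change -0.03, against 0.02 for all genes tested). The lower gene was Cfl1, cofilin, the actin-severing protein that LIM kinases phosphorylate, at 330 ± 73.05 CPM in NOD and 730 ± 85.1 CPM in C57BL/6J (-1.20 ± 0.21, adjusted p = 0.0142, edgeR). All 4 NOD libraries were below the C57BL/6J libraries. With C57BL/6J sample 1 left out, Cfl1 had an adjusted p of 0.102 (edgeR). The gene that DESeq2 alone called was Filip1, at 0.940 ± 0.551 CPM in NOD and 0.0829 ± 0.0579 CPM in C57BL/6J (3.42 ± 0.83, adjusted p = 0.0603 in edgeR and 0.0476 in DESeq2), with all NOD libraries higher. Pak2, the related kinase, was far more abundant than Pak1, at 241 CPM in NOD and 250 CPM in C57BL/6J. Pak4 stood at 14.4 and Pak6 at 4.58 CPM in NOD, against 14.8 and 4.97 CPM in C57BL/6J, and Pak3 was near 0. Git2, a scaffold that carries PAK to adhesions, was the other of the 2 most abundant genes of the list, at 465 ± 14.7 CPM in NOD and 453 ± 75.5 CPM in C57BL/6J (adjusted p = 0.997, edgeR).

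Few partners of Myo7a passed the low-count filter. Of 13 genes of the Usher complex and of myosin VIIa transport 3 were tested, 0 higher and 1 lower in NOD (median -0.56). The lower gene was Rab27a, a GTPase of secretory vesicles that links them to myosins, at 30.4 ± 5.22 CPM in NOD and 79.9 ± 3.19 CPM in C57BL/6J (-1.44 ± 0.19, adjusted p = 0.00340, edgeR), with all NOD libraries lower. Whrn, the scaffold whirlin, stood at 84.3 ± 2.19 CPM in NOD and 121 ± 35.5 CPM in C57BL/6J (-0.56 ± 0.20, adjusted p = 0.220). Myrip, the linker between Rab27a and myosin VIIa, had 3 reads in all libraries together, and Ush1g had none. Of 17 other unconventional myosins tested 1 was higher and 0 were lower (median -0.02). Myo1d, a membrane-tethering myosin, stood at 2.56 ± 0.240 CPM in NOD and 0.479 ± 0.0235 CPM in C57BL/6J (2.37 ± 0.47, adjusted p = 0.0255), and fell short of the threshold with C57BL/6J sample 1 (adjusted p = 0.181) or sample 2 (0.137) left out. Myo18a at 417 CPM in NOD and 465 CPM in C57BL/6J and Myo9b at 209 CPM in NOD and 217 CPM in C57BL/6J were the most abundant.

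No tested relative or partner of Rsf1, Clns1a, Gdpd4 or Capn5 passed the test. Of 21 genes of the methylosome and of Sm assembly around Clns1a, 0 were called by edgeR, with 2 at an unadjusted p under 0.05 and 0 by DESeq2 (median -0.09). Gemin5 stood at 89.4 CPM in NOD and 111 CPM in C57BL/6J, and Snrpb at 116 CPM in NOD and 128 CPM in C57BL/6J. Of 11 subunits of ISWI remodellers, 0 were called by edgeR, 0 were at an unadjusted p under 0.05 and 0 were called by DESeq2 (median -0.06). Bptf stood at 924 CPM in NOD and 910 CPM in C57BL/6J, Baz1b at 481 CPM in NOD and 549 CPM in C57BL/6J. Smarca5, the partner of Rsf1, stood at 189 CPM in NOD and 217 CPM in C57BL/6J. The 5 tested phosphodiesterases (median 0.20) and 10 tested calpains (median 0.08) had 0 calls by edgeR, 0 genes at an unadjusted p under 0.05 and 0 calls by DESeq2. Gpcpd1 stood at 64.0 CPM in NOD and 53.9 CPM in C57BL/6J, and Gde1 at 20.7 CPM in NOD and 19.5 CPM in C57BL/6J. Cast, the calpain inhibitor calpastatin, stood at 146 CPM in NOD and 151 CPM in C57BL/6J, and Capn7 at 114 CPM in NOD and 96.0 CPM in C57BL/6J.

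**Figure D4:**
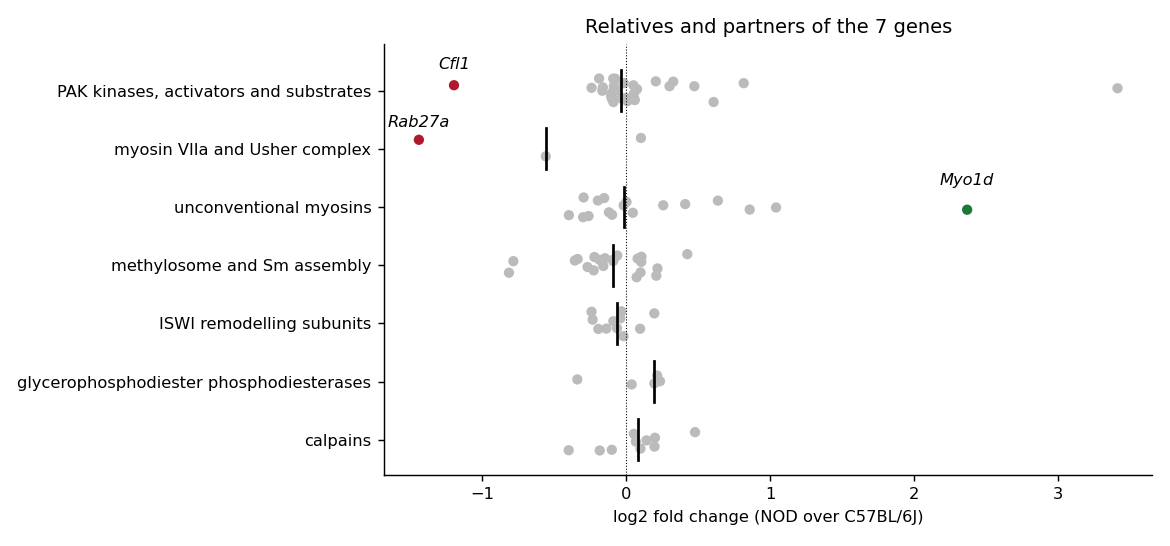
log2 fold change (NOD over C57BL/6J) of each tested gene of the lists around the 7 members, 1 point a gene, with a black line at the list's median. Genes past an adjusted p of 0.05 are in red (lower in NOD) or green (higher in NOD) and named: Cfl1 (-1.20), Rab27a (-1.44) and Myo1d (2.37). No aquaporin other than Aqp11 could be tested.

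The genes whose profile over the 8 libraries was nearest to each lower member were found by the root-mean-square difference of log2 CPM, each gene centred on its own mean, among 15226 genes. Nearest to Aqp11 were Btbd11 on chromosome 10 (difference 0.215 log2 units), Itga5, the integrin alpha 5 chain, on chromosome 15 (0.229) and Gm15708 on chromosome 5 (0.274). Among the nearest to Pak1 were Creb3l2 on chromosome 6 (0.134) and Sema4d on chromosome 13 (0.138). Nearest to Myo7a were the low-count genes 2310015A10Rik on chromosome 12 (0.274), Gm8019 on chromosome X (0.283) and Gm44313 on chromosome 11 (0.300). None of these lay on chromosome 7. The ranking follows the strain difference that chose the members, and the 4 libraries of a strain share its samples.

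The labelled stage and the purity of the sort were read from marker genes. Cd4 stood at 1312 CPM in NOD and 1228 CPM in C57BL/6J, and Cd8a at 1684 CPM in NOD and 1536 CPM in C57BL/6J. Cd8b1 went the other way, at 1091 ± 95.5 CPM in NOD and 1698 ± 116 CPM in C57BL/6J, with all NOD libraries lower. Its log2 fold change was -0.68 ± 0.18 (adjusted p = 0.0912 in edgeR and 0.0445 in DESeq2). The 15 markers of double-positive cells summed to 19190 to 23650 CPM in the NOD libraries and 24000 to 25550 CPM in the C57BL/6J libraries, and 0 passed the test (edgeR; 4 at an unadjusted p under 0.05, 1 by DESeq2). Rag1, the recombinase subunit that led this list, stood at 5983 CPM in NOD and 8841 CPM in C57BL/6J (adjusted p = 0.217, edgeR). The 9 markers of myeloid and dendritic cells summed to 15.9 to 27.1 CPM in NOD and 9.46 to 12.1 CPM in C57BL/6J. Of the 8 tested 1, Csf1r, was higher by edgeR, at 3.61 CPM in NOD and 0.626 CPM in C57BL/6J, and none of the 9 was at 0. At an unadjusted p under 0.05 there were 3. DESeq2 called 2, Csf1r and Lyz2, the latter at 9.70 ± 3.54 CPM in NOD and 3.77 ± 0.665 CPM in C57BL/6J, with overlapping libraries (adjusted p = 0.109 in edgeR and 0.0193 in DESeq2). Markers of B cells summed to 245 to 407 CPM in NOD and 333 to 375 CPM in C57BL/6J, nearly all Ighm. Of the same list Jchain, of secreted antibody, stood at 8.52 ± 7.08 CPM in NOD and 0.831 ± 0.284 CPM in C57BL/6J (3.31 ± 0.70, adjusted p = 0.0513 in edgeR and 4.32e-06 in DESeq2), with overlapping libraries. Those of erythroid cells summed to 1.61 to 14.2 CPM in NOD and 1.34 to 5.90 CPM in C57BL/6J, and those of stroma to 127 to 153 CPM in NOD and 141 to 154 CPM in C57BL/6J, mostly Pecam1. Natural killer and gamma-delta markers summed to 72.8 to 151 CPM in NOD and 81.01 to 104 CPM in C57BL/6J. Mature single-positive markers summed to 114 to 135 CPM in NOD and 142 to 161 CPM in C57BL/6J. No gene of these 5 lists was past an adjusted p of 0.05 in edgeR, and 1, 1, 1, 2 and 4 were at an unadjusted p under 0.05 in that order, with 1, 0, 0, 0 and 2 called by DESeq2. The median log2 fold change was 0.74 for the B cell list, 0.74 for the erythroid, 0.55 for the stroma, 0.26 for the natural killer and gamma-delta, 0.60 for the mature single-positive, 0.72 for the myeloid and 0.06 for the double-positive list, against 0.02 for all genes tested. In the mature single-positive and double-positive lists the summed level was lower in NOD while the median was above 0. The summed levels of the double-positive, myeloid and mature single-positive lists did not overlap between the strains. The part of all these lists in the differences of Aqp11, Pak1 and Myo7a was not tested.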

How the data were processed

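RNA of sorted double-positive thymocytes was measured in 8 libraries, 4 from NOD and 4 from C57BL/6J mice. For each library the authors deposited a list of unnormalized counts, in whole reads for each Ensembl gene. STAR 2.5.0a, HTSeq 0.6.1 and GRCm38 are named per the submitters' processing notes. Not given in the sources used here are the annotation, the strand setting and duplicate handling. That build is the genome of C57BL/6J, and what sequence differences of NOD do to the counts was not tested. Of 53465 genes, 53360 had an identifier in GENCODE M21, which gave symbols and coordinates. Depth was 23.533 to 30.371 M reads in genes for the NOD libraries and 8.527 to 15.702 M for the C57BL/6J libraries. Another 46.56% to 59.08% of reads in NOD and 39.98% to 53.94% in C57BL/6J were assigned to no gene and were left out, as were ambiguous reads (0.69% to 2.38%).

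Counts were added up over the T numbers, giving 47.237 and 55.647 M reads for NOD and 23.81 and 24.229 M for C57BL/6J. Nothing in the labels says that B numbers are separate animals, so the spread behind the p-values may be technical. Levels are plain CPM. Genes kept by filterByExpr were tested in edgeR 4.0.16 (R 4.3.3) with TMM factors (0.952 to 1.02) and the robust quasi-likelihood F-test, strain as the only term, two-sided, Benjamini-Hochberg over 17291 genes. The 2 tools compared were edgeR and DESeq2 1.42.0. The interval of Gdpd4 was taken from the reads of each strain added up, so it covers counting error only and leaves out the spread between samples. No molecular identifiers are named in the labels, so whether copies of 1 molecule were counted more than once is not known.

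The members, gene lists and alternatives were chosen with earlier results of these data known. Named were all 7 members, every other tested gene of the window, of each list around the members the called genes and the 2 most abundant, and the 3 nearest profiles of each called member, of which 1 is not reported here. Marker genes, Pak2 and its relatives, Filip1, Myrip, Ush1g and Smarca5 were named outside that rule, after their values were seen. Of the list genes outside the members, 1 PAK gene and 1 marker of gamma-delta cells had no symbol match.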

Additional observations from a re-analysis of the deposited data

Results flagged for a closer look

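Among the 4 libraries of a strain, 1 library stood far from the other 3 in 3 of the 14 groups examined (7 genes in 2 strains). The rule marks about 1 group in 20 by chance where values are independent and continuous. Libraries of 1 sample are not independent. Gdpd4 held 0 reads in 3 NOD libraries, where any read in the remaining library would be marked. The 3 marked groups are therefore not read as an excess over chance. Pak1 stood at 36.2 CPM in the second library of C57BL/6J sample 2, above the other 3 C57BL/6J libraries, which lay between 30.7 and 30.8 CPM. Gdpd4 stood at 0.158 CPM in the second library of NOD sample 2, from 4 reads, with 0 reads in the other 3 NOD libraries. Gdpd4 stood at 0.397 CPM in the second library of C57BL/6J sample 1, also from 4 reads, with 1 read in all in the other 3 C57BL/6J libraries.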

How the results depend on the processing

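Over the 12 alternatives the log2 fold change ranged from -2.74 to -2.28 for Aqp11, -1.41 to -1.18 for Pak1 and -2.24 to -1.73 for Myo7a, a description of genes chosen on that difference. Pak1 fell short of the threshold with C57BL/6J sample 1 (-1.28) or sample 2 (-1.29) left out, and Myo7a with either left out (-1.73 and -2.24) and with the replicate block (-1.98). The number of genes called, 637, was 1188 without the low-count filter, 1535 with 8 libraries as samples, 256 to 1389 with 1 sample left out and 513 with the replicate block. The deviations of same-numbered samples from their strain means were only weakly and negatively correlated (r = -0.123 over 17291 genes). The numbers pair nothing by the labels, and the crossed block, chosen after seeing the data, called 768. DESeq2 called 937. Neighbours called were 2 without the filter, 2 with 8 libraries, 2 in DESeq2, 1 with the crossed block and 0 to 1 with 1 sample left out. Genes called in the lists, 3, were 5 without the filter, 5 with 8 libraries, 1 to 4 with 1 sample left out and 2 with the replicate block, where Myo1d lost its call (adjusted p = 0.0502, edgeR).

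Values near 0 changed sign. Ints4 was -0.0038 in thinned samples. Emsy was 0.0023 without the filter, 0.0065 with the block and 0.0065 with the crossed block. Git2 was 0.0052 with upper-quartile factors, 0.0084 without the filter, 0.0019 with the block and 0.0020 with the crossed block. With 1 sample left out the ranges were -0.23 to 0.0599 for Clns1a, -0.00071 to 0.73 for Capn5, -0.26 to 0.0803 for Gab2, -0.16 to 0.36 for Ndufc2, -0.12 to 0.15 for Ints4, -0.23 to 0.13 for Aamdc, -0.76 to 0.22 for Rsf1os2 and -0.21 to 0.21 for Emsy. For list genes they were -0.12 to 0.11 for Git2, -0.21 to 0.0154 for Myo9b, -0.38 to 0.0337 for Snrpb, -0.14 to 0.10 for Bptf, -0.10 to 0.18 for Gde1 and -0.0471 to 0.52 for Gpcpd1. The cause of these changes was not tested. Leaving out a sample left 1 in its strain, which is then assumed to vary like the other strain. Depth limits Gdpd4 and, with 99 reads in NOD, Myo7a.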

Other observations

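Called genes of chromosome 7 were also counted on either side of the run, a choice made after the values were seen. Towards lower coordinates the nearest gene called by edgeR was Gm37829, at -16.21 Mb from the Aqp11 start and under 1 CPM in both strains. Crtc3, a CREB coactivator, was next at -17.05 Mb (lower, at 49.6 CPM in NOD and 90.3 CPM in C57BL/6J). Over 16.2 Mb towards higher coordinates, members left out, 16 of 146 tested genes were called, 10 higher and 6 lower in NOD (edgeR), against 3.68% of all genes tested. DESeq2 called 19 of the 146, against 937 of all 17291 genes tested. The length was set by the distance to Gm37829, so the lower side holds no edgeR call by construction and the sides were not compared. DESeq2 called 3 of the 87 tested genes on the lower side.

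The first genes called by edgeR beyond Myo7a lay outside the window. Arrb1, which encodes beta-arrestin 1, an adaptor that desensitises G protein-coupled receptors, starts 1.80 Mb from Aqp11 and was lower, at 14.6 CPM in NOD and 31.7 CPM in C57BL/6J (log2 fold change -1.16 ± 0.20, adjusted p = 0.0144, edgeR). Neu3, a sialidase of gangliosides, starts 2.09 Mb away and was higher, at 120.4 CPM in NOD and 31.2 CPM in C57BL/6J (1.90 ± 0.17, adjusted p = 0.000360, edgeR).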
